A study of Mus musculus with 2 samples.

Results

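The enzymes that write, erase and read chemical marks on histones and DNA were followed in NGN3-EGFP cells sorted from the mouse embryonic pancreas. Members were chosen by gene symbol: lysine demethylases (Kdm), histone deacetylases (Hdac), sirtuins (Sirt), SET domain proteins (Setd), protein arginine methyltransferases (Prmt), chromobox proteins (Cbx), acetyltransferases (Kat, Ep300, Crebbp), Polycomb subunits (Ezh1, Ezh2, Eed, Suz12, Jarid2, Rnf2, Bmi1), DNA methyltransferases (Dnmt) and TET dioxygenases (Tet). This gave 74 of the 23284 symbols in the deposited count files. The cells were sorted by GFP from whole pancreata of NGN3-EGFP embryos at e15.5, of a strain labelled as mixed, C57BL6, and their RNA was sequenced. NGN3 is the protein of Neurog3, the transcription factor that starts endocrine differentiation. The labels do not describe how the reporter was built, and do not say how many embryos or litters went into each sample. The only group has 2 libraries: replicate 1, with 12495143 counted reads, and replicate 2, with 12043734. No condition was compared, and differences between the libraries measure only the spread of these samples, which may be technical.

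Histone marks are set by writers (acetyltransferases, lysine and arginine methyltransferases), removed by erasers (deacetylases and demethylases) and bound by readers such as the chromobox proteins. DNA methylation is placed by Dnmt enzymes and oxidised by Tet enzymes. In the mouse pancreas, Polycomb repressive complex 2 (PRC2) is known to restrain the formation of endocrine progenitors. Dnmt3a is known to take part in keeping alpha cell genes silent in beta cells.

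Transcripts of this enzyme set were broadly present. A gene was called detected at 1 CPM (counts scaled to a common library size) or more in each library. Of the 74 members, 70 were detected, against 45.7% of all genes in the files. The other 4, Prmt8, Hdac10, Sirt4 and Dnmt3l, are described with their classes. By mean level 28 members lay between 100 and 1000 CPM and 35 between 10 and 100 CPM, while none lay above 1000 CPM. Plain CPM is not corrected for length. Since long transcripts yield more reads, levels of different genes are given below as CPM per kb of exon, in replicate 1 and then in replicate 2. On this scale the median over all 74 members was 17.4 and 14.9, beside 7.13 and 7.35 over all genes with at least 10 reads. In both libraries 23 members lay in the top 25% of genes with at least 10 reads, where 19.3% of those genes did. The reads of each gene were also compared between the libraries by an exact binomial test, two-sided and given the library sizes, with Benjamini-Hochberg adjustment over all genes with at least 10 reads at 0.05. It compares these libraries and not conditions. Of the 73 members tested 63 were called, with 33 higher in replicate 2 and 30 in replicate 1. The test called 85.8% of all genes, so the share among the members lay near that background, and counts by this test are given below only as a description.

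The highest members per kb were the demethylase Kdm1a and the SET domain protein Setd5, followed by Dnmt3a. Kdm1a stood at 111.5 and 107.1, Setd5 at 112.2 and 88.2, and Dnmt3a at 82.1 and 76.7. With Hdac2 and Setd8 these were the 5 members in the top 10% of genes in both libraries, where 7.54% of genes with at least 10 reads were. At the other end Dnmt3l, Prmt8, Hdac9, Hdac10 and Kdm1b had a mean of less than 1 CPM per kb. The plot of all members by class shows tight values at the top of most classes and wide gaps between the libraries for many members lower down.

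**Figure D1:**
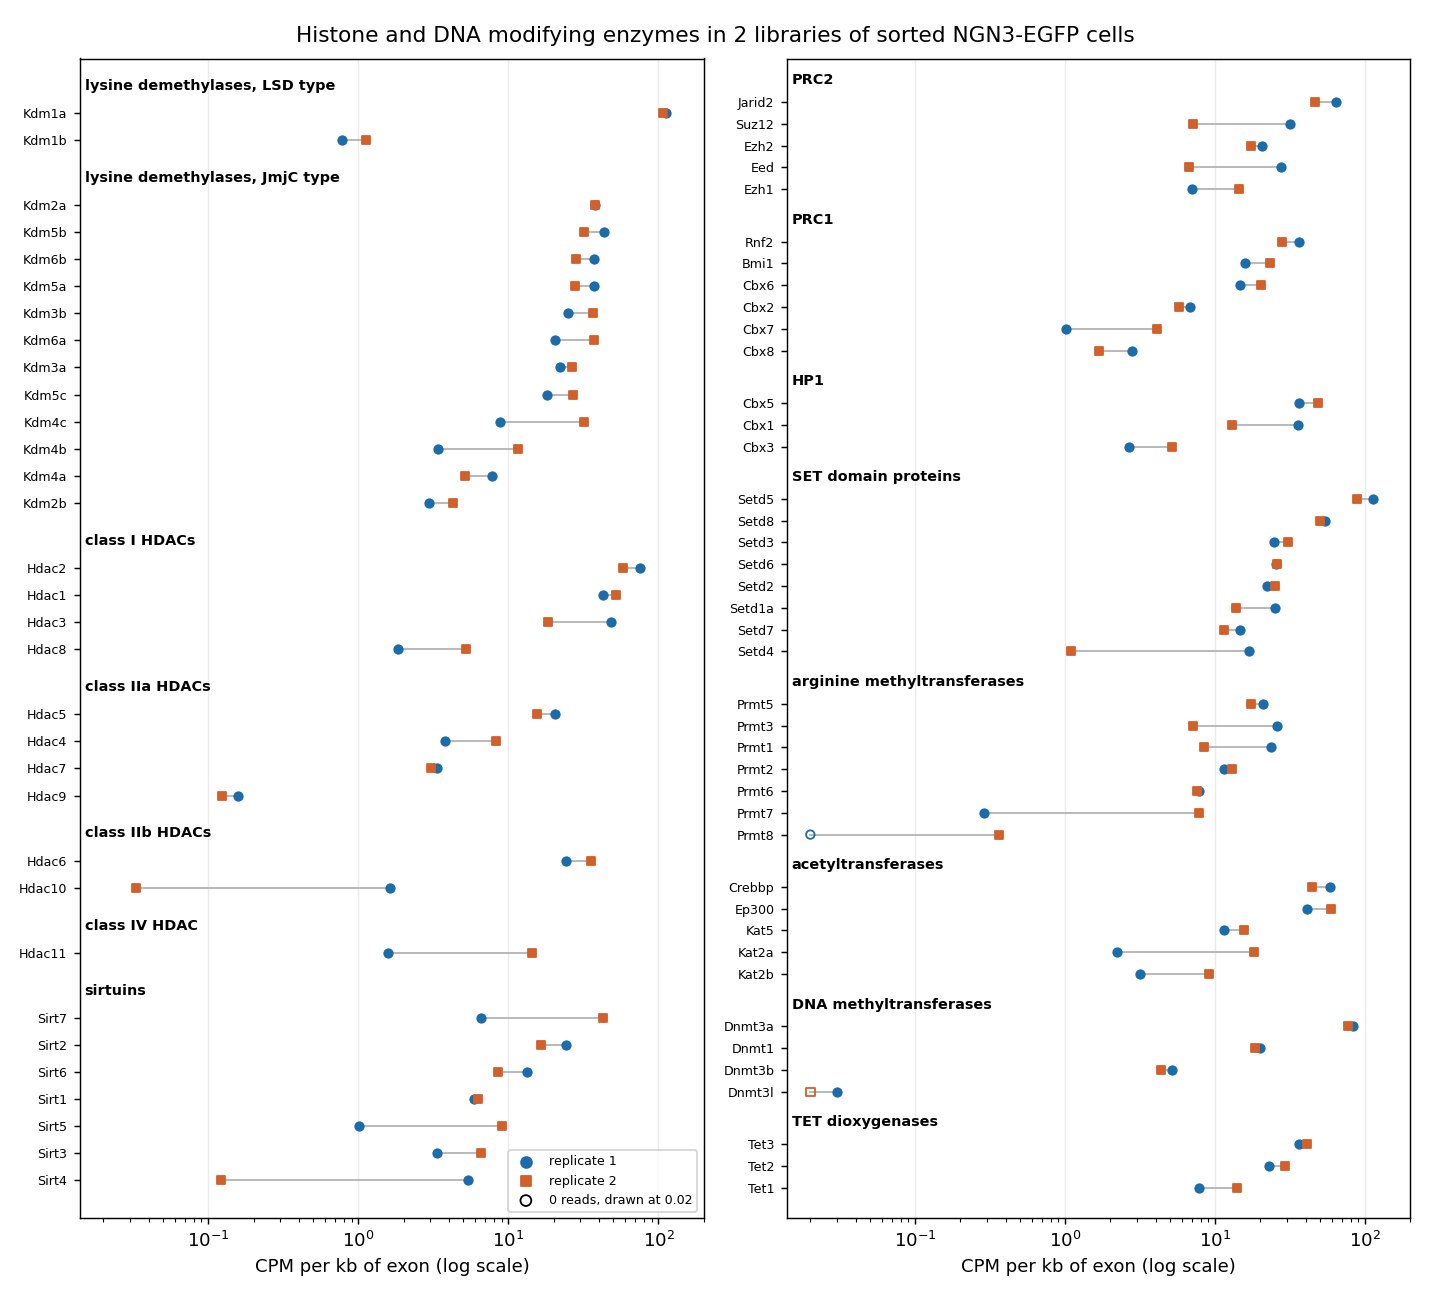
Level of 73 of the 74 members in CPM per kb of exon (log axis), grouped by enzyme class and ordered by mean within a class. Circles are replicate 1 and squares replicate 2, joined by a line, and open symbols have 0 reads. Kdm1a, Setd5 and Dnmt3a have the highest means, and Dnmt3l, Prmt8 and Hdac9 the lowest.

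The start regions of 4 members are shown because they span the range of levels: Dnmt3a and Kdm1a at the top, Dnmt3l and Prmt8 with almost no reads. Each is a RefSeq window on build GRCm38.p6 of 300 bases, from 250 bases before the transcript start to 50 after it, 5′ to 3′ on the gene's strand. It is the window with the most CG dinucleotides among the starts of that gene, and CG is in capitals. CG reads the same on both strands and is the site that Dnmt enzymes methylate. The counts were made on build mm9, and no coordinate of that build is used here.
Dnmt3a, chr12:3806910-3807209, plus strand: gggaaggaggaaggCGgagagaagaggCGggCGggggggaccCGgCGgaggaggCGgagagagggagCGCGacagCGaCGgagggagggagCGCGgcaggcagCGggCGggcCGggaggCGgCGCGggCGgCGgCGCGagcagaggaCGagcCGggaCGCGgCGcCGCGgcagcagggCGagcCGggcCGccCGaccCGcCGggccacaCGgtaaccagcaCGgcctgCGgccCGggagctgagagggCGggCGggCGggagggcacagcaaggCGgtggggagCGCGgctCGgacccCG
Kdm1a, chr4:136602674-136602973, minus strand: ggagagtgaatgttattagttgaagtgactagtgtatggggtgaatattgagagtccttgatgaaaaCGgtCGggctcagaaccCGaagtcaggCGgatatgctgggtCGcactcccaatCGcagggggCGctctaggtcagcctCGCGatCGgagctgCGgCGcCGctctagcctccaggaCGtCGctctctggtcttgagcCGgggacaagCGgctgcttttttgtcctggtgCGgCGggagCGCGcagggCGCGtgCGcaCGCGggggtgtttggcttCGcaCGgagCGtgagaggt
Dnmt3l, chr10:78042037-78042336, plus strand: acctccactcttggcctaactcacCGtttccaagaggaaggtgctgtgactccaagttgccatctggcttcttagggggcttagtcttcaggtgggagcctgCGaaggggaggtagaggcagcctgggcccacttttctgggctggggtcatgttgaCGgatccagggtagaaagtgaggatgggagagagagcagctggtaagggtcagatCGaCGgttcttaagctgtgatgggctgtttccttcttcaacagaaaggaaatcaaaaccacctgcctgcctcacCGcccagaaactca
Prmt8, chr6:127769106-127769405, minus strand: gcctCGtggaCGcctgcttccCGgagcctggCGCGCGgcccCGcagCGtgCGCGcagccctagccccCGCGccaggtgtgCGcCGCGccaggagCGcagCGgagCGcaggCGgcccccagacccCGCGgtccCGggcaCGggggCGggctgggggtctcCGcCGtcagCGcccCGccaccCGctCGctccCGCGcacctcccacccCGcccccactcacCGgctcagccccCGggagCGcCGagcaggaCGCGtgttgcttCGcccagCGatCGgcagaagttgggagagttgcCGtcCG

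The Dnmt3a window held 47 CG, Kdm1a 29, Dnmt3l 6 and Prmt8 44. A CG-dense start therefore went with high reads in Dnmt3a and with almost none in Prmt8. Windows were matched for 64 of the 74 members. The richest window of a member held a median of 24 CG, against 8 over 27018 genes and 23 over the 8409 genes detected in both libraries. At least 15 CG were found in 57 members, or 89.1%, in 37.1% of all genes and in 79.2% of the detected genes. Counted over single windows, 34.6% of all 32841 windows reached 15. Fewer were found in Setd5, Hdac9, Dnmt3l, Hdac8, Kat2b, Kdm4a and Kdm5c, with Setd5 at 1 despite its high level. Whether the matched window of Setd5 holds the start used in these cells was not tested. The members thus differed far more from all genes than from the detected ones, as the plot of CG counts shows.

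**Figure D2:**
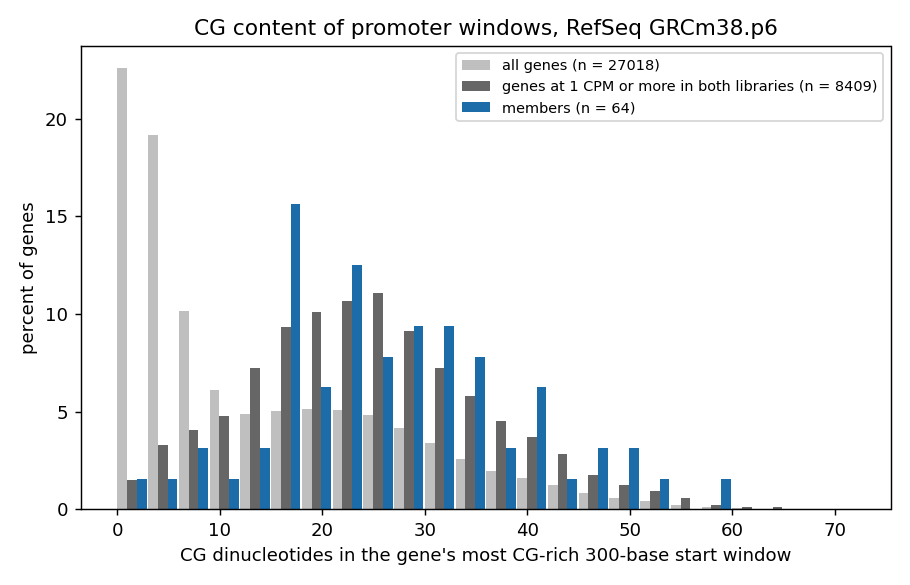
Percent of genes (vertical axis) by the number of CG dinucleotides in the richest 300-base start window of the gene (horizontal axis, bins of 3). Light bars are all genes, dark bars genes at 1 CPM or more in both libraries and blue bars the 64 matched members, whose median of 24 lies beside 23 for the detected genes.

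Among the DNA methyltransferases the de novo enzyme Dnmt3a predominated. Dnmt1, which copies methylation to the new strand after replication, stood at 19.8 and 18.3 CPM per kb. Dnmt3b, the other de novo enzyme, stood at 5.17 and 4.32. Per kb Dnmt3a was above Dnmt3b by 15.9-fold and 17.8-fold in the respective libraries, and Dnmt1 was at 0.241 and 0.239 of Dnmt3a. These ratios were among the closest between the libraries of all pairs examined. Dnmt3l, a partner of the de novo enzymes without activity of its own that acts in mouse germ cells, had 1 read in replicate 1 and 0 in replicate 2. Its level was 0.0804 CPM (exact Clopper-Pearson 95% interval 0.00204 to 0.448) in replicate 1. For the count of 0 in replicate 2 the same interval reached up to 0.305 CPM. The 3 detected Dnmt genes were each slightly lower in replicate 2, with log2 ratios of -0.10, -0.11 and -0.26 for Dnmt3a, Dnmt1 and Dnmt3b.

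All 3 Tet genes, whose products oxidise methylcytosine, were detected, in the order Tet3, Tet2, Tet1 in both libraries. Tet3 stood at 36.2 and 40.5 CPM per kb, Tet2 at 22.8 and 29.2, and Tet1 at 7.81 and 14.05. Tet3 was above Tet1 by 4.64-fold and 2.89-fold and above Tet2 by 1.58-fold and 1.39-fold. Each was higher in replicate 2, by log2 ratios of 0.16 for Tet3, 0.36 for Tet2 and 0.85 for Tet1, so the gap to Tet1 was narrower there.

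Of 17 other genes of DNA methylation reading and turnover, 13 were detected. By the binomial test 5 were higher in replicate 2 and 9 in replicate 1. The growth arrest gene Gadd45a stood at 197.8 and 154.8 CPM per kb, and its relative Gadd45g at 67.6 and 25.7. The binding protein Mbd2 stood at 46.3 and 57.8, Uhrf2 at 80.2 and 23.96 and Mbd6 at 57.6 and 20.6. Gadd45a and Mbd2 were within 2-fold between the libraries, while the other 3 were over 2-fold higher in replicate 1. Uhrf1, which recruits Dnmt1 to newly copied DNA, was at 14.6 and 2.31 CPM, while Dnmt1 itself stayed within a log2 ratio of -0.11. The summed level of 20 cycling genes was 602 and 594 CPM in the 2 libraries. The genes behind it did not move together: 9 were higher in replicate 2 and 11 in replicate 1. Of the 20, 3 were over 2-fold apart, against 48.2% of all genes. The part of cycling cells in the level of Dnmt1 was not tested. Tdg, a glycosylase that removes oxidised methylcytosine, had no read in either library. Sequence shared with other genes was examined only for the members, and the handling of multiply mapping reads is not known. The count of 0 for Tdg may therefore not mean absence.

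Lysine demethylases fall into the flavin-dependent LSD type and the JmjC type, which needs iron and oxoglutarate. All 14 members were detected. Of the LSD type, Kdm1a is the eraser in corepressor complexes with Rcor proteins, and Kdm1b acts in oocytes. Kdm1b stood at only 0.774 and 1.13 CPM per kb, far below Kdm1a. Of the partners, Rcor2 stood at 34.04 and 128 CPM per kb and the neuronal repressor Rest, which recruits Kdm1a through Rcor1, at 0.768 and 0.492. Rcor2 was thus well above Rest in both libraries; its own log2 ratio between them was 1.91.

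Among the 12 JmjC demethylases a group of 8 lay close together, with means from 22.6 to 37.9 CPM per kb. Kdm2a, which binds unmethylated CG-rich DNA, had the highest mean of these, at 37.9 and 38.0, with an adjusted p of 0.91 by the exact binomial test. In replicate 1 Kdm5b was above it. Its paralog Kdm2b was the lowest JmjC member at 2.98 and 4.27. Of the Kdm5 genes, which remove the lysine methylation of active promoters, Kdm5b stood at 43.3 and 31.8, Kdm5a at 37.2 and 28.0, and Kdm5c at 18.1 and 27.1. Kdm5c was thus well below Kdm5a in replicate 1 and near it in replicate 2, at ratios of 0.486 and 0.967.

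Kdm6a and Kdm6b, which remove the Polycomb mark, exchanged order: Kdm6b stood at 37.3 and 28.2 CPM per kb and Kdm6a at 20.5 and 37.1. Kdm3a and Kdm3b, which act on a repressive mark of histone H3, stood at 22.2 and 26.6 and at 25.1 and 36.9. Kdm4b and Kdm4c varied most between the libraries among the JmjC members. Kdm4c was at 38.4 and 137.7 CPM, a log2 ratio of 1.84, and Kdm4b at 15.4 and 53.3 CPM, a log2 ratio of 1.78. Kdm4a went the other way, at 39.5 and 25.8 CPM. Of 9 other JmjC genes 5 were detected. Among these Jhdm1d stood at 38.9 and 19.7 CPM per kb, Phf2 at 41.4 and 24.5, Jmjd6 at 40.6 and 24.6, Phf8 at 25.5 and 32.6 and Jmjd1c at 10.5 and 19.4. By the binomial test 2 of the 9 were higher in replicate 2 and 6 in replicate 1. The 6 include the Y-linked genes Kdm5d, with 250 and 2 reads, and Uty, with 23 and 5. Neither of these was detected by the limit used.

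PRC2 consists of the methyltransferase Ezh2 or Ezh1 with Eed and Suz12, and Jarid2 helps to bring it to its targets. All 5 were detected and Jarid2 was the highest, at 64.1 and 46.2 CPM per kb. Ezh2 stood at 20.4 and 17.2 and Ezh1 at 7.05 and 14.4, a ratio of 2.89 in replicate 1 and 1.20 in replicate 2. The order of Ezh2 and Ezh1 depended on the scale: in CPM Ezh1 was above Ezh2 in replicate 2, with a log2 ratio of Ezh2 to Ezh1 of -0.86. The structural subunits were uneven between the libraries. Suz12 stood at 31.4 and 7.11 CPM per kb, or 137.1 and 31.1 CPM. Eed stood at 27.6 and 6.72 CPM per kb, or 57.1 and 13.9 CPM. The log2 ratios of Suz12 and Eed were -2.14 and -2.03, beside -0.24 for Ezh2 and 1.02 for Ezh1. Of the 5 members 3 were thus over 2-fold apart, beside 48.2% of all genes with at least 10 reads. From 10 to 100 CPM, where these 3 lay by mean level, 42.9% of all genes were.

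PRC1 carries the ubiquitin ligase Rnf2 with Bmi1 and a Cbx reader of the Polycomb mark. Rnf2 was the highest at 35.9 and 27.8 CPM per kb, followed by Bmi1 at 15.8 and 23.1. Only 63.9% of the 25-base words in Bmi1 transcripts were unique to it among annotated genes, so its count may share reads. Among the Polycomb Cbx genes Cbx6 predominated at 14.6 and 20.1, above Cbx2 at 6.78 and 5.71. Cbx7 stood lower at 1.02 and 4.10 and Cbx8 at 2.78 and 1.69, and the order of this pair differed between the libraries. Of 23 other Polycomb genes 21 were detected, led per kb by the histone binding subunit Rbbp7 at 66.3 and 69.7, Scmh1 at 46.4 and 44.9, the PRC1 subunit Rybp at 38.4 and 49.2 and Yaf2 at 35.3 and 41.2. Phc1 stood at 29.8 and 29.2. By the binomial test 9 of the 23 were higher in replicate 2 and 10 in replicate 1. At known Polycomb-repressed genes, Cdkn2a, Hoxa9 and Hoxd13 had no read in either library, which allows up to 0.241 and 0.248 CPM. Cdkn2b was at 7.40 CPM in replicate 1 and had no read in replicate 2.

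The HP1 proteins Cbx1, Cbx3 and Cbx5 read the heterochromatin mark. Cbx5 stood at 35.9 and 48.5 CPM per kb and Cbx1 at 35.3 and 12.995, so they were level in replicate 1 only. Cbx3 was far lower at 2.66 and 5.14, but just 67.2% of its words were unique to it, and most of the shared ones lay in an annotated copy. Reads that map to several places may have been dropped or split, so the level of Cbx3 is uncertain.

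All 8 SET domain genes were detected, and 1 of them was over 2-fold apart between the libraries. Of all genes with at least 10 reads 48.2% were over 2-fold apart, and of those from 100 to 1000 CPM, where 5 of these 8 lay by mean level, 12.2% were. After Setd5 came Setd8, listed as Kmt5a in newer annotation, which methylates histone H4. It stood at 53.9 and 50.04 CPM per kb. Setd2, which methylates histone H3 over gene bodies, stood at 22.1 and 24.95, and Setd1a, the catalytic subunit of a COMPASS complex, at 25.1 and 13.7. Only 46.1% of the words of Setd1a and 65.3% of those of Setd3 were unique to the gene. Setd3, known as an actin methyltransferase, stood at 24.6 and 30.7, Setd6 at 25.2 and 25.8 and Setd7 at 14.5 and 11.5. Setd4, the member over 2-fold apart, was at 30.6 and 1.98 CPM.

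Other lysine methyltransferases were also well represented, with 20 of 22 measured genes detected and 12 higher in replicate 2 and 9 in replicate 1 by the binomial test. By mean CPM the most abundant was Mll2, at 808 and 1074 CPM, although Nsd1 and Mll1 were above it in replicate 1; its older symbol could not be tied to an exon length. Per kb Nsd1, which acts on gene bodies, stood at 64.9 and 62.4, the trithorax enzyme Mll1 at 53.0 and 50.1, Mll5 at 39.4 and 43.2, Mll3 at 25.2 and 31.7 and Smyd2 at 19.8 and 28.5. The muscle gene Smyd1 had no read. All 8 COMPASS core subunits were detected, and 3 were higher in each library by the binomial test. Dpy30 was the highest of these at 116.5 and 73.3 CPM per kb, followed by Hcfc1 at 62.3 and 57.6. Paxip1 stood at 26.8 and 41.1, Cxxc1 at 38.4 and 26.5 and Ash2l at 19.9 and 20.8.

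The arginine methyltransferases were mostly lower. Of 7 members 6 were detected, and 4 differed over 2-fold between the libraries, a share near the 48.2% of all genes. Prmt5, which places symmetric dimethylarginine, was the steadiest of the higher ones at 20.9 and 17.3 CPM per kb. Prmt1, the main enzyme for asymmetric dimethylarginine, stood at 23.4 and 8.35, so that the ratio of Prmt1 to Prmt5 was 1.12 in replicate 1 and 0.483 in replicate 2. Prmt3, which acts on a ribosomal protein, stood at 25.7 and 7.12 CPM per kb, or 64.3 and 17.9 CPM. Prmt2 and Prmt6 were lower and steady, at 11.4 and 12.97 and at 7.80 and 7.59 CPM per kb.

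Prmt7, which places monomethylarginine, was at 1.13 and 30.6 CPM. Prmt8, a brain enzyme bound to the cell membrane, had 0 reads in replicate 1 and 12 in replicate 2, or 0.992 CPM. The exact Clopper-Pearson 95% interval reached up to 0.297 CPM in replicate 1 and ran from 0.513 to 1.73 CPM in replicate 2. Of 8 partner genes 7 were detected. Btg2, an antiproliferative partner of Prmt1, stood at 112.3 and 109.1 CPM per kb, Clns1a, a subunit of the Prmt5 complex, at 49.0 and 42.1, and Carm1, another arginine methyltransferase, at 26.7 and 8.05. Fbxo11 stood at 43.6 and 43.3 and Btg1 at 23.97 and 33.3. By the binomial test 2 of the 8 were higher in replicate 2 and 3 in replicate 1.

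Acetylation was represented by the paralogous coactivators Crebbp and Ep300 at high level. Crebbp stood at 58.5 and 43.9 CPM per kb and Ep300 at 40.6 and 58.6. Their order thus turned between the libraries, with a ratio of Ep300 to Crebbp of 0.694 and 1.34. Kat5, the catalytic subunit of the TIP60 complex, stood at 11.3 and 15.48. The paralogs Kat2a and Kat2b were lower and uneven. Kat2a was at 6.75 and 55.1 CPM, and Kat2b at 14.6 and 42.1 CPM, both over 2-fold higher in replicate 2.

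The MYST acetyltransferases appear in the files under older symbols that the rule did not take. Myst2 stood at 44.8 and 35.8 CPM per kb, Myst3 at 29.1 and 24.99, Myst4 at 7.84 and 16.6 and Myst1 at 8.20 and 21.4. All 16 genes measured in the list of acetyltransferases and partners were detected, with 5 higher in replicate 2 and 10 in replicate 1 by the binomial test. Of these Ncoa2, a nuclear receptor coactivator, stood at 61.4 and 43.0, Ing4 at 54.7 and 46.9, Brd1 at 49.0 and 42.6 and Trrap at 31.6 and 24.9. Among 6 bromodomain readers of acetyl-lysine, all detected, Brd2 was the highest at 109.8 and 78.0 CPM per kb. Brd3 stood at 38.9 and 29.0, Brd8 at 26.3 and 28.4 and Brd7 at 16.2 and 22.6. None of the 6 differed over 2-fold between the libraries, beside 48.2% of all genes and 12.2% of those from 100 to 1000 CPM, where 4 of the 6 lay. By the binomial test 3 were higher in each library.

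Of the class I deacetylases, the catalytic subunits of the nuclear corepressor complexes, Hdac2 stood at 75.6 and 57.8 CPM per kb. Hdac1 stood at 42.7 and 52.5, below Hdac2 in both libraries, at ratios of 0.565 and 0.908. Only 35.7% of the words of Hdac1 were unique to it, and most of the shared ones lay in an annotated copy, so this order is uncertain. Hdac3, the enzyme of the Ncor complexes, was at 98.8 and 37.2 CPM. Hdac8 was the lowest of the class at 1.83 and 5.21 CPM per kb.

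Class IIa deacetylases, which shuttle between nucleus and cytoplasm and are known to shape beta and delta cell numbers in the mouse pancreas, were led by Hdac5. It stood at 20.4 and 15.495 CPM per kb, above Hdac4 at 3.77 and 8.30, by 5.41-fold and 1.87-fold. Hdac7 was lower and steady at 3.32 and 3.05, and Hdac9 was near the limit at 0.158 and 0.124, or 21 and 16 reads. Of the remaining deacetylases, Hdac6, which acts on tubulin, stood at 24.2 and 35.7. Hdac11, the only class IV enzyme, was at 4.18 and 37.9 CPM. Hdac10, a polyamine deacetylase, was at 4.10 CPM (exact Clopper-Pearson 95% interval 3.05 to 5.39) in replicate 1 and 0.0827 CPM (0.00209 to 0.461) in replicate 2.

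Of 18 deacetylase corepressor subunits 17 were detected, with 8 higher in replicate 2 and 7 in replicate 1 by the binomial test. Besides Rcor2 the highest was Chd4, the remodeller of the NuRD complex, at 81.5 and 82.1 CPM per kb. Tbl1x stood at 41.4 and 37.1 and Sin3a at 41.0 and 37.1. These 3 differed between the libraries by less than 2-fold, as the class I enzymes Hdac1 and Hdac2 did. Of the 18 subunits 4, Rcor2 among them, were over 2-fold apart, all higher in replicate 2, against 48.2% of all genes. The class I enzymes Hdac3 and Hdac8 were also over 2-fold apart, with log2 ratios of -1.405 and 1.47.

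The sirtuins, deacetylases that use NAD, were mostly low, and 6 of 7 were detected. Sirt7, a nucleolar enzyme, had the highest mean per kb but was uneven. It stood at 6.60 and 42.6 CPM per kb, or 11.9 and 76.9 CPM, and in replicate 1 it was below Sirt2. Sirt2, which is mostly cytoplasmic, was steadier at 24.4 and 16.6 CPM per kb, and the nuclear enzymes Sirt6 and Sirt1 stood at 13.2 and 8.51 and at 5.92 and 6.31. Sirt1 was below Sirt6 per kb in both libraries, at ratios of 0.447 and 0.741, but above it in replicate 2 by CPM, with a log2 ratio of 0.50. Of the mitochondrial sirtuins Sirt3 stood at 3.36 and 6.57 CPM per kb. Sirt5 was at 2.97 and 26.5 CPM. Sirt4 went the other way, at 10.9 CPM (exact Clopper-Pearson 95% interval 9.17 to 12.9) in replicate 1 and 0.248 CPM (0.0511 to 0.725) in replicate 2.

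Ratios per kb were set out for 16 pairs of related enzymes. In 12 pairs the order was the same in both libraries, with the first named gene higher in 6 and the other in 6, and in 4 pairs it differed. An exact permutation test over 2 libraries cannot go under a p of 0.5, so no order was tested. The ratios of Dnmt1 to Dnmt3a, Dnmt3a to Dnmt3b and Tet3 to Tet2 moved the least between the libraries, as the plot of pair ratios shows. The size of several ratios depended on the exon length. The mean log2 ratio of Dnmt3a to Dnmt3b was 4.06 per kb and 5.26 in CPM, and that of Tet2 to Tet1 was 1.30 per kb and 0.66 in CPM.

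**Figure D3:**
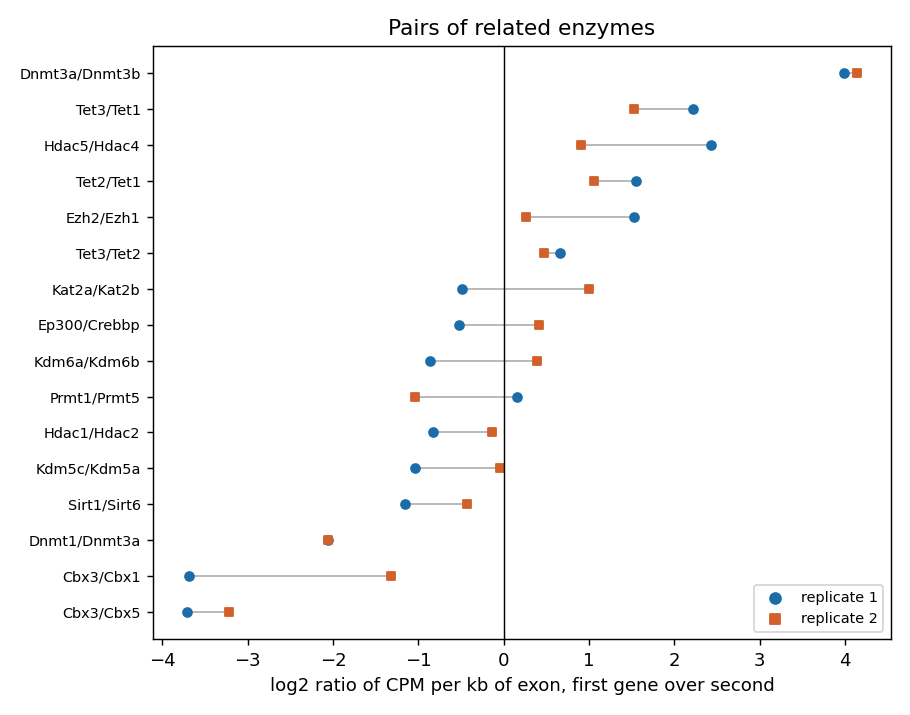
Log2 ratio of CPM per kb of exon (horizontal axis) for 16 pairs of related enzymes, first gene over the other, ordered by the mean ratio. Circles are replicate 1 and squares replicate 2, and the vertical line marks equal levels. The Dnmt3a/Dnmt3b ratio lies furthest right at 3.98 and 4.14, and the ratios of 4 pairs lie on both sides of the line.

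The libraries were close for the abundant members and far apart for many, but not all, of the scarcer ones. Log2 ratios were taken as replicate 2 over replicate 1 after adding a prior count of 2, over genes with at least 10 reads, and 73 members entered. Of these 22 were over 2-fold apart, or 30.1%, against 48.2% of all 13416 genes. Replicate 2 was higher in 13 of them and replicate 1 in 9, where 25.9% and 22.3% of all genes were over 2-fold higher in that library. None of the 28 members from 100 to 1000 CPM was over 2-fold apart, where 12.2% of all genes at that level were. From 10 to 100 CPM 17 of 35 members were, against 42.9% of all genes. Below that, from 1 to 10 CPM, 4 of 9 members were, against 74.0%. The median log2 ratio of the members was 0.03 and that of all genes 0.04.

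Among the 14 members over 2-fold apart with a mean of at least 20 CPM, Suz12, Eed, Hdac3, Cbx1, Prmt1 and Prmt3 were higher in replicate 1. Kdm4b, Kdm4c, Kat2a, Kat2b, Hdac4, Hdac11, Sirt7 and Ezh1 were higher in replicate 2. In the plot of the libraries against each other these stand apart from the diagonal at middle levels, while all members from 100 CPM lie between the dashed lines.

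**Figure D4:**
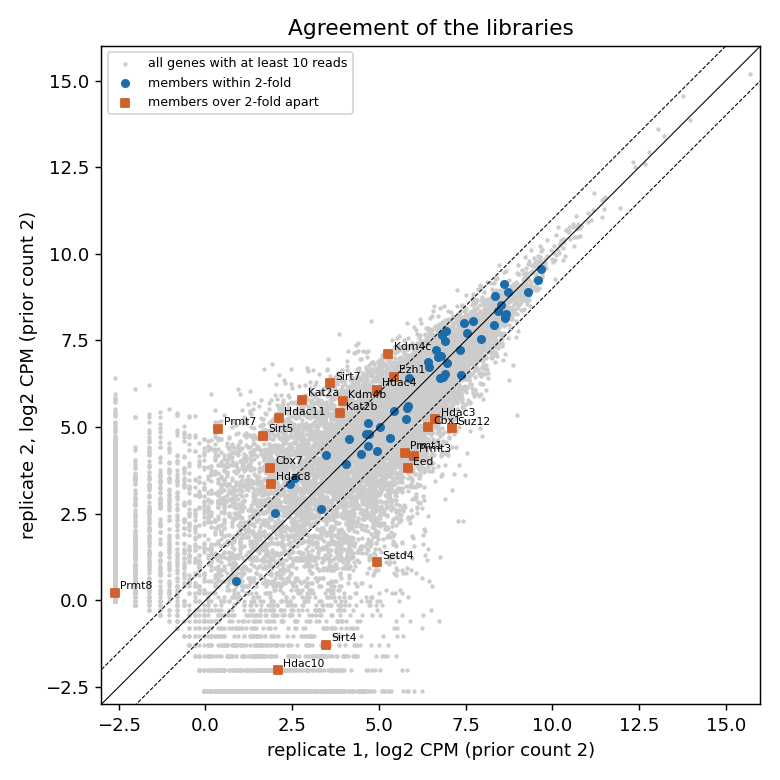
Log2 CPM with a prior count of 2 in replicate 1 (horizontal axis) and replicate 2 (vertical axis). Grey points are the 13416 genes with at least 10 reads, blue circles members within 2-fold and orange squares the 22 members over 2-fold apart, with their symbols. The solid line marks equality and the dashed lines 2-fold.

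The libraries also differed in sex-linked transcripts, which touches members on the X chromosome. The Y-linked paralogs of Kdm5c and Kdm6a, Kdm5d and Uty, were at 20.1 and 1.85 CPM in the first library but only 0.165 and 0.413 CPM in the other. The Y-linked gene Eif2s3y had 115 and 8 reads in replicates 1 and 2, whereas Ddx3y, also Y-linked, had 1 and 5. Xist, which coats and silences an X chromosome in female cells, was at 3982 and 2580 CPM. All 4 X-linked members, Kdm5c, Kdm6a, Hdac6 and Hdac8, were higher in replicate 2, with log2 ratios of 0.58, 0.86, 0.56 and 1.47. Kdm5c and Kdm6a are known to escape X inactivation in the mouse. Of 460 X-linked genes with at least 10 reads, leaving out Xist, 48.0% were higher in replicate 2, and 51.5% of 12808 autosomal genes were. The part of the sex of the embryos in these ratios was not tested.

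Markers of the sorted cells were present, and those of endothelial, immune and erythroid cells were scarce. All 12 endocrine markers were detected, including Neurog3 at 735.5 and 551.5 CPM, and their summed level was 37352 and 52860 CPM. The hormone gene Gcg stood at 14058 and 24069 CPM, Ins1 at 8377 and 12399 and Ins2 at 5104 and 6461. Hormone transcripts were thus far above Neurog3, and the share of progenitors among the sorted cells was not tested. Detected were 8 of 10 acinar, 7 of 10 ductal, 6 of 10 mesenchymal, 1 of 8 endothelial, 3 of 8 immune and 0 of 8 erythroid markers. Their summed levels in replicates 1 and 2 were 2394 and 1623 CPM for acinar, 814 and 781 for ductal, 599 and 250 for mesenchymal, 29.3 and 7.36 for endothelial, 80.5 and 16.7 for immune and 4.66 and 2.81 for erythroid markers. Acinar transcripts were not all scarce: Ctrb1 stood at 1321 and 986 CPM, above Neurog3 in both libraries, and Pnliprp1 at 450 and 280. The acinar factor Ptf1a, in contrast, had 0 and 3 reads. The part of acinar RNA in the levels of the members was not tested. Defining markers of the scarcer types did not all behave alike. Ptprc, the pan-leukocyte gene, had 0 and 1 read, while the immune genes Laptm5, Itgam and Cd68 had 472 and 43, 293 and 60, and 229 and 93. The endothelial gene Kdr had 1 and 0 reads, while Cdh5 had 194 and 2, Eng 168 and 23, and Esam 0 and 54. The alpha globin genes had none, the embryonic globin gene Hbb-y 55 and 0, and the erythroid gene Alas2 0 and 34. Markers were not examined for sequence shared with other genes, so a count of 0, as for the alpha globins, may not mean absence. Twist1 of the mesenchymal list and Fcer1g of the immune list had no read in either library. The summed levels of all these lists were higher in replicate 1, whereas that of the endocrine list was higher in replicate 2. Within the endocrine list 7 genes, among them Gcg, Ins1 and Ins2, were higher in replicate 2. The other 5, Neurog3, Nkx2-2, Insm1, Neurod1 and Isl1, were lower there, with log2 ratios of -0.415, -0.422, -0.237, -0.188 and -0.047. The part of these markers in the ratios of the members was not tested. In sorted bulk RNA, fewer cells of a type and less RNA per cell cannot be told apart.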

How the data were processed

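The values that the authors deposited are raw counts of reads for each gene symbol, with 1 file per library; a blank last line was left out. Per the submitters' processing notes the build was mm9, and DESeq, Cufflinks 2.0.2, TopHat2 2.0.4, cutadapt and FastQC are named without roles. For the counting program, the strand setting and multiply mapping reads, nothing was given in the sources used here. Counts of paralogs, copies, overlapping and antisense genes are therefore uncertain.

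TMM factors (edgeR 4.0.16, R 4.3.3) of 0.9956 and 1.0044 scaled the counts to CPM. Exon lengths, the union over basic transcripts, and words of 25 bases came from GENCODE M21 on GRCm38, which matched 22804 symbols, or 97.9%. In 11 members fewer than 80% of words were unique to the gene. Besides Hdac1, Setd1a, Bmi1, Setd3 and Cbx3 these include Sirt3 at 68.7%, Sirt5 at 74.4% and Kdm2b at 74.9%. Hdac11 at 75.5% and Prmt6 at 76.9% are also among them. A count of 0 allows up to 3 counts, or 0.241 and 0.248 CPM. These limits and the intervals cover counting error alone, because PCR reads lacking molecular identifiers are not independent. The binomial test was tested on simulated data of 13416 genes for replicate 2 against replicate 1. Of 100 genes each, it found 85 at 2-fold and 92 at 4-fold, and it called 10 of 13216 genes made without a change. The simulated counts held counting error alone. These rates therefore do not carry over to the real libraries, where 85.8% of genes were called.

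Some results on individual genes are not reported here, while counts and medians cover all members. Values were given for the highest and lowest of each class, paired genes, genes without reads and those over 2-fold apart that averaged at least 20 CPM, and up to 5 genes of each related list were named by mean level per kb. Any member could be named, and values of other members, such as Prmt7 and Sirt5, were added to complete their classes. These, and Uhrf1, Rest, Cdkn2b, Mll2, Myst1, Myst3, Myst4 and several cell type and sex-linked markers, fall outside this rule and were chosen after their values were seen. Members and lists were chosen with earlier results of these data known. Alternatives were plain totals, DESeq2 1.42.0 size factors, the 10 most abundant genes left out, other detection limits, count filters, prior count and exon lengths, and each replicate left out.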

Additional observations from a re-analysis of the deposited data

How the results depend on the processing

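The count of members detected was 70 under the other scalings, 62 at a limit of 5 CPM and 70 to 72 with either replicate left out. The count over 2-fold apart was 22 under the other scalings and 20 among genes with at least 100 reads; it was also 20 among members with at least 80% of their words in no other gene, an alternative chosen after seeing the data, as were the levels under other scalings. The members called by the binomial test numbered 61 to 65 with another scaling or no filter on counts, and 22 if the libraries also had to be over 2-fold apart. The median level of the members, 5.79 log2 CPM, was 5.99 with the 10 most abundant genes left out of the totals, which raises all CPM, and 5.89 with at least 100 reads, which drops low members. The pairs with the first gene higher in each library were 6, 5 in CPM or with exon lengths of the full annotation, and 7 to 9 with a replicate left out, since 1 library then sets the order. Pairs in the same order in both libraries fell from 12 to 11 in CPM and with the full annotation. The mean log2 ratio of Ezh2 to Ezh1 turned to -0.065 with exon lengths of the full annotation and to -0.22 in CPM, and that of Sirt1 to Sirt6 to 0.13 in CPM; lengths alone changed there. Under these 2 alternatives 13 other values of pair ratios moved by more than the spread between the libraries and kept their direction. With the full annotation the mean log2 ratio of Hdac1 to Hdac2 went from -0.48 to -1.16, that of Cbx3 to Cbx5 from -3.46 to -5.07 and that of Tet2 to Tet1 from 1.30 to 0.53. No member over 2-fold apart changed direction under the other scalings, which moved the median log2 ratio of all genes from 0.04 to between 0.02 and 0.05. No paired analysis was possible because there is only 1 group. Depth limits members with few reads, such as Dnmt3l and, in replicate 1, Prmt8.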
